A study of Rattus norvegicus with 18 samples.

Results

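The aminoacyl-tRNA synthetase genes of rat cortical neuroglial cultures were followed through a glutamate excitotoxicity model and 4 treatments combined with it. The genes were taken by name, as the symbols of 1 amino acid letter followed by ars and an optional 1 or 2, together with Farsa, Farsb and Eprs1. This gave 36 of the 31463 rows of the count tables. Of these, 20 encode enzymes of the cytosol and 16, whose symbols end in 2, encode enzymes of the mitochondria. All 36 passed the filter on low counts, which left 14398 genes in all. The names alone decided which genes were members, though this rule was set with earlier results of these data known.

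A synthetase joins an amino acid to its tRNA, and each amino acid has its own enzyme, so that the set as a whole feeds the ribosome. Mitochondria make their own proteins and, for most amino acids, import a separate synthetase encoded by another nuclear gene. Gars1 and Kars1 are exceptions, since each gives rise to both a cytosolic and a mitochondrial glycyl- or lysyl-tRNA synthetase. Farsa and Farsb encode the α and β subunits of a single phenylalanyl-tRNA synthetase of the cytosol, and Eprs1 encodes a fused enzyme for glutamic acid and proline. Many cytosolic synthetases are known targets of ATF4, the transcription factor of the integrated stress response, which raises amino acid supply and tRNA charging when translation initiation is restrained.

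RNA was measured in primary cultures from the cerebral cortex of newborn Wistar rats, which hold neurons with glial cells and were used on day 10 in vitro. Cytosine arabinoside had been given to all cultures to limit the growth of glial cells. There were 6 groups of 3 libraries. Control cultures received no glutamate. In the Glutamate group 100 µM glutamate was applied, and RNA was collected 4 h after the model. The Memantine group received 100 µM memantine, a blocker of NMDA receptors, in the glutamate model. Its label names only memantine, and the methods of the study place it together with the glutamate solution. In Glutamate_vesicles, Glutamate_secret and Glutamate_BPC, material secreted by glial progenitor cells had been added a day before glutamate. The progenitor cells came from induced pluripotent stem cells of 1 human line. The labels identify the vesicle group. A protein fraction and a total secretome were the other preparations, and as the labels leave unsaid to which of the remaining names each belongs, the names are kept as given. Nothing in the labels says whether libraries of a group came from separate animals, and p-values therefore measure only the spread between these libraries.

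To show where ATF4 could act, the promoters of the synthetase genes were searched for TGATGNAA, the core of the element that ATF4 binds together with C/EBP proteins. RefSeq promoters of GRCr8, from 250 bases before to 50 bases after the start, were found for 32 of the 36 genes. Both strands were searched. A match stood in 7 of the 12 synthetase promoters known as ATF4-responsive that had a sequence, which is 58.3%. There was none in the promoters of 5 other cytosolic and 15 mitochondrial synthetases. The same letters stood in 3 of 15 promoters of other ATF4 targets (20%) and in 3.98% of all 33469 promoters. Windows are printed on the gene strand, 5′ to 3′, and capitals mark the match. Positions count from the start, with negative values before it. They are shown so that the element and its place can be compared between synthetases. For Tars1, on the minus strand at chr2:62114803-62114862, the match began at −27. For Mars1, on the minus strand at chr7:65023754-65023813, it began at −17. For Iars1, on the minus strand at chr17:15193653-15193712, it began at −24. In Aars1, on the plus strand, there was a match at −112 in chr19:55908344-55908403 and another at 10 in chr19:55908480-55908509. In Cars1, on the minus strand at chr1:208225334-208225363, and in Yars1, on the plus strand at chr5:146820183-146820212, the matches at 18 and 39 lay behind the start.
Tars1: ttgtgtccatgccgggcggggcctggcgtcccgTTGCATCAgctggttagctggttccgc
Mars1: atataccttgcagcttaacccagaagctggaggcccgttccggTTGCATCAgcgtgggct
Iars1: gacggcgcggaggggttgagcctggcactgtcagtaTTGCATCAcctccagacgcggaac
Aars1, before the start: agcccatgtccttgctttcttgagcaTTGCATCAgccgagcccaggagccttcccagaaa
Aars1, after the start: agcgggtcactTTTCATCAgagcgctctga
Cars1: cggcgccgcggTTGCATCAgattctggaaa
Yars1: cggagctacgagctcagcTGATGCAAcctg
In Tars1, Mars1, Iars1, Cars1 and the upstream window of Aars1 the capitals read TTGCATCA, the same element on the opposite strand, and in Yars1 they read TGATGCAA. Nars1 was the other gene with a match, at −14. A match describes letters only and is no evidence of binding in these cultures.

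Library totals ranged from 8409574 to 17206354 counts, and ribosomal RNA took from 3.04% of a library in Glutamate_secret 2 to 43.0% in Control 1. Levels are given as CPM, the depth-scaled counts of edgeR at library sizes corrected with TMM factors. Neuron markers, 6 genes including Tubb3 and Map2, summed to 1910–2590 CPM in Control and 535–1040 CPM in Glutamate, and all 6 had negative fold changes. Astrocyte markers summed to 2150–5590 CPM in Control and 5200–9510 CPM in Glutamate, with all 6 fold changes positive, and all 6 microglia markers were positive too. In the Memantine libraries neuron markers spanned 596–3010 CPM. In these bulk samples fewer cells of a type and less RNA per cell cannot be told apart, and the part of cell makeup in the values of the synthetase genes was not tested.

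Synthetase transcripts were detected throughout the series. All 36 genes had a count in 12 of the 18 libraries. Control 1 was the poorest library, with 33 genes, and Vars2 and Yars2, the mitochondrial enzymes for valine and tyrosine, were among those at 0 in it. At its depth a count of 0 allows up to 0.857 CPM, taken as 3 counts, which covers counting error only. Vars2 was also at 0 in Glutamate_secret 3. The median within-group SD of log2 CPM was 0.43 for cytosolic genes, 0.62 for mitochondrial genes and 0.78 for all genes tested. Wars2 was the steadiest member, with an SD of 0.24, and Vars2, Yars2 and Iars1 were among the most variable, with 1.45, 1.31 and 1.26.

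**Figure D1:**
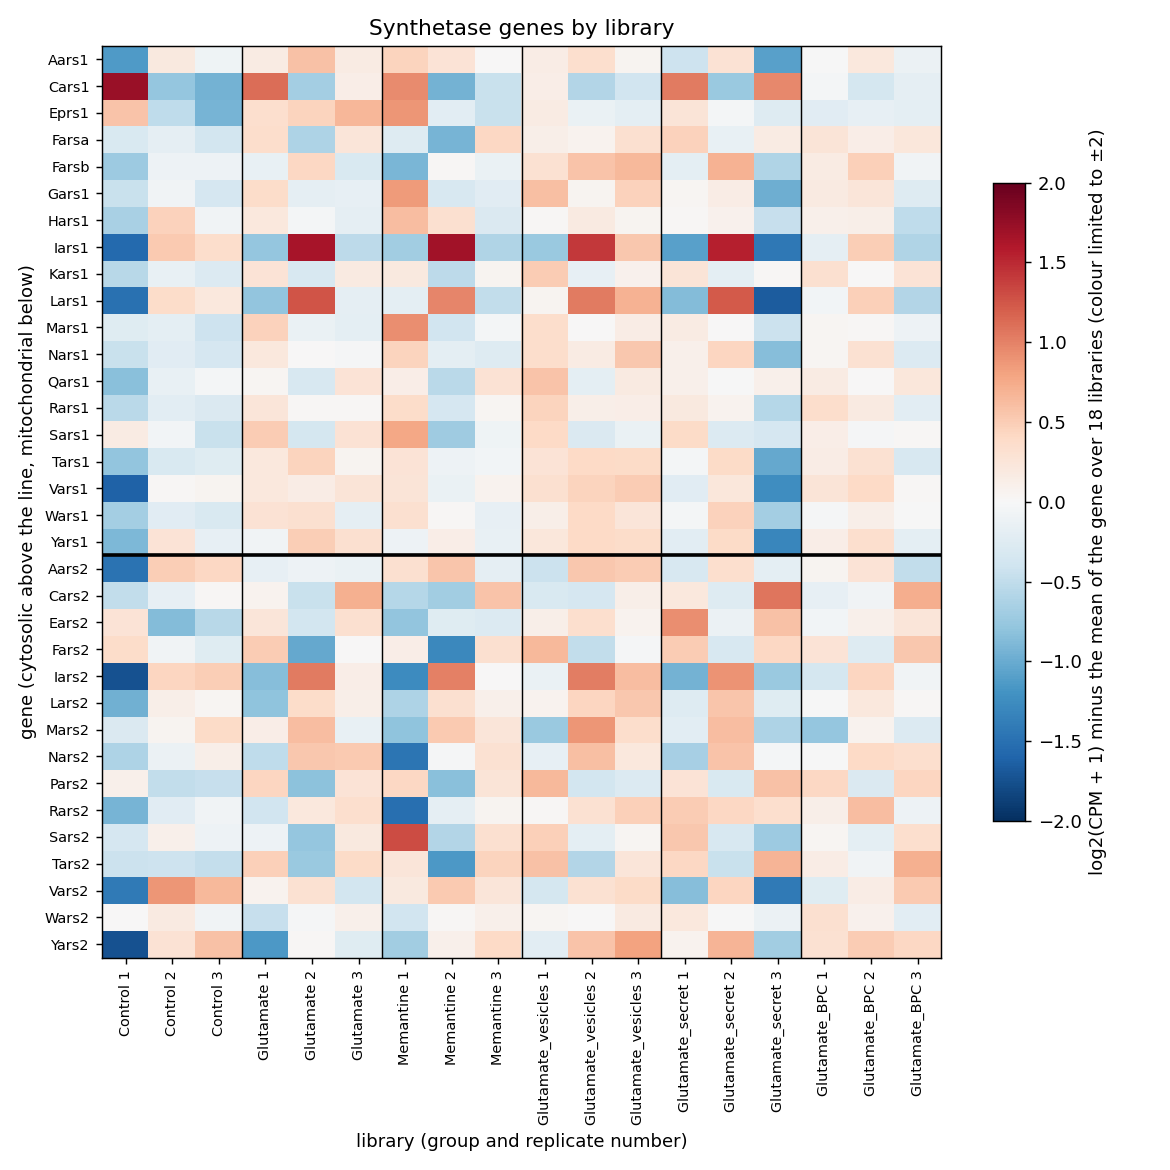
Heat map of 34 of the synthetase genes (rows, cytosolic above the black line and mitochondrial below) in the 18 libraries (columns, by group and replicate number); colour gives log2(CPM + 1) minus the mean of the gene over all libraries, limited to 2 in either direction. Iars1, Lars1 and Cars1 change colour between libraries of 1 group, and Control 1 is low for most genes but high for Cars1.

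No synthetase gene was called at an adjusted p below 0.05 in any of the 9 comparisons between groups, nor in the F test over the 6 groups, by the quasi-likelihood test of edgeR with Benjamini-Hochberg adjustment over all genes tested. The likelihood-ratio test of edgeR and DESeq2 also called 0 of 36 in each. Under the quasi-likelihood test the background was close to this. That test called 0% of all genes in 8 comparisons, 0.0139% in Glutamate_vesicles against Control and 0.00695% in the F test. Shares of all genes under the likelihood-ratio test and DESeq2 are not given here. In the F test 0 members had an unadjusted p below 0.05, against 7.75% of all genes, and the members of smallest p were, in this order, Ears2, Rars2, Farsb, Tars1 and Vars1. The values below are therefore descriptions of levels and fold changes, with their errors, and none of the differences between groups passed the test. Unless stated, these errors and p-values come from a fit without the replicate number, by which many genes differed, as described below. With that number as a block, 0 members were called in Glutamate_vesicles against Control, against 3.74% of all genes.

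Glutamate against Control asks how the excitotoxic stimulus alters expression. Of the 20 cytosolic genes, 19 had a positive log2 fold change, with a median of 0.395 and a range from −0.18 (Cars1) to 0.68 (Tars1). Of the 16 mitochondrial genes, 10 were positive and the median was 0.23. Over all genes tested the median was 0.08 and 56% were positive. At an unadjusted p below 0.05 there were 0 members, against 8.11% of all genes. Without Control 1 the medians were 0.26 for cytosolic and 0.06 for mitochondrial genes.

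Tars1, the cytosolic threonyl-tRNA synthetase, had the smallest p. Its level was 80.0, 112 and 117 CPM in Control 1, 2 and 3, and 159.9, 189.6 and 144 CPM in Glutamate 1, 2 and 3. Every Glutamate library lay above every Control library, with a log2 fold change of 0.68 ± 0.34 (SE, n = 3) and an adjusted p of 0.673 in edgeR. Tars1 was at 167, 129 and 133 CPM in Memantine, 168, 183 and 181 CPM in Glutamate_vesicles, 134, 181 and 67.9 CPM in Glutamate_secret and 154, 171 and 111 CPM in Glutamate_BPC. Among these only Glutamate_BPC 3 lay within the Control range, and Glutamate_secret 3 lay below it.

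Wars1, the cytosolic tryptophanyl-tRNA synthetase, which is also induced by interferon, was at 66.8, 91.7 and 87.2 CPM in Control and 132, 134 and 95.1 CPM in Glutamate. The ranges did not overlap, and the log2 fold change was 0.55 ± 0.31 (SE, n = 3; adjusted p = 0.757 in edgeR). It was at 135, 109 and 95.6 CPM in Memantine, 116, 142 and 128 CPM in Glutamate_vesicles, 105, 149 and 66.6 CPM in Glutamate_secret and 106, 117 and 108 CPM in Glutamate_BPC. Of the 15 libraries given glutamate, all but Glutamate_secret 3 were above the highest Control library.

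In 3 further cytosolic genes, Vars1, Rars1 and Nars1, all Glutamate libraries were above all Control libraries, so that 5 members in all were separated in this direction, against 4.48% of all genes. Vars1, the valyl-tRNA synthetase, was at 29.1, 92.8 and 95.7 CPM in Control, 107, 102 and 110.3 CPM in Glutamate, 110, 83.7 and 96.3 CPM in Memantine, 115, 126 and 131 CPM in Glutamate_vesicles, 78.6, 108 and 38.4 CPM in Glutamate_secret and 109.8, 121 and 93.6 CPM in Glutamate_BPC. Control 1 was far below the other Control libraries, and the highest Control library, at 95.7 CPM, lay just below the lowest Glutamate library, at 102 CPM. Rars1 and Nars1, the enzymes for arginine and asparagine, had log2 fold changes of 0.45 ± 0.29 and 0.41 ± 0.35 (SE, n = 3).

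Among mitochondrial enzymes the smallest p values belonged to Tars2 and Ears2. Tars2, for threonine, was at 29.4, 29.9 and 28.4 CPM in Control and 56.1, 23.6 and 52.5 CPM in Glutamate, a log2 fold change of 0.59 ± 0.46 (SE, n = 3; adjusted p = 0.947 in edgeR). Glutamate 2 lay below Control and the other 2 Glutamate libraries well above it. The same pattern of a low library 2 was seen at 47.9, 17.6 and 55.1 CPM in Memantine, at 60.6, 26.4 and 47.7 CPM in Glutamate_vesicles, at 54.0, 29.3 and 65.0 CPM in Glutamate_secret and at 44.4, 38.1 and 66.1 CPM in Glutamate_BPC.

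Ears2, for glutamic acid, rested on 750 counts over all 18 libraries. Its level was 4.00, 1.28 and 1.83 CPM in Control, 3.88, 2.22 and 4.18 CPM in Glutamate and 1.40, 2.50 and 2.44 CPM in Memantine. The preparations gave 3.49, 4.25 and 3.35 CPM in Glutamate_vesicles, 6.93, 2.83 and 5.25 CPM in Glutamate_secret and 2.99, 3.46 and 3.91 CPM in Glutamate_BPC. Control 1 was the only Control library within the range of these 3 groups. The log2 fold change was 0.59 ± 0.51 for Glutamate against Control and −0.68 ± 0.50 for Memantine against Glutamate (SE, n = 3), with adjusted p values of 0.979 and 0.999 in edgeR.

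**Figure D2:**
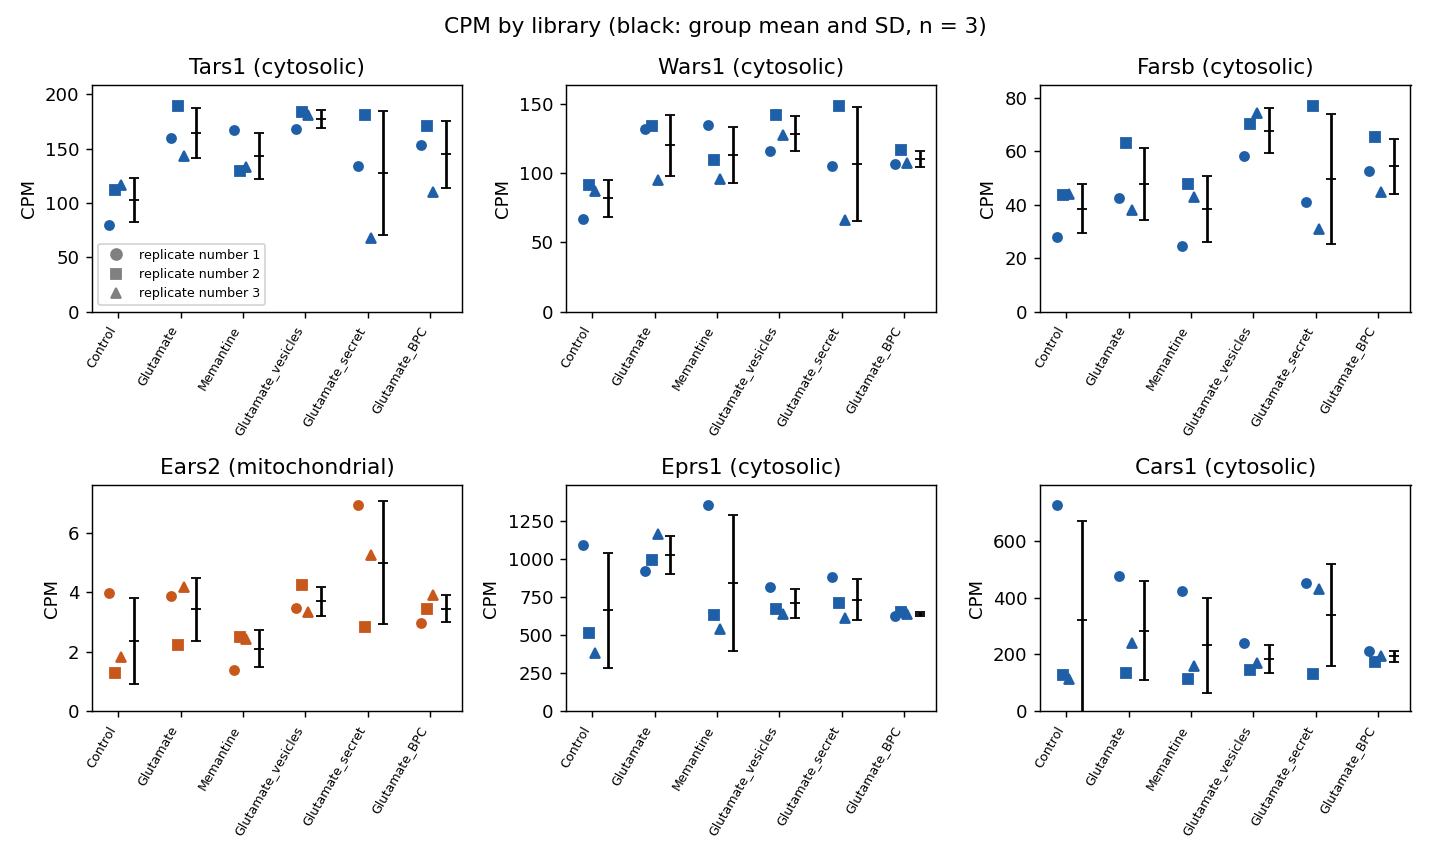
CPM (linear axes from 0) of 6 named synthetase genes in each library by group, with symbols for the replicate number and black bars for the group mean and SD (n = 3); the Control bar of Cars1 would reach below 0 and is drawn only down to it. For Tars1 and Wars1 all Glutamate points are above all Control points, and for Cars1 the point of replicate number 1 is the highest in every group.

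The synthetases known as ATF4 targets were set beside the transcription factor and its other targets. In Glutamate against Control the 13 synthetases of this list had a median log2 fold change of 0.46, with 12 positive, and the 7 other cytosolic synthetases had a median of 0.32, with all 7 positive. The other ATF4 targets, 15 tested genes of amino acid synthesis and transport and of the stress response, had a median of 0.67. All 15 were positive, and 2 had an unadjusted p below 0.05, namely Shmt2, a mitochondrial enzyme of serine breakdown (0.88 ± 0.34, SE, n = 3), and Cebpg, a binding partner of ATF4 (0.71 ± 0.28, SE, n = 3). Atf4 itself was at 582, 408 and 392 CPM in Control and 1536, 412 and 951 CPM in Glutamate, with a log2 fold change of 1.07 ± 0.53 (SE, n = 3; adjusted p = 0.663 in edgeR). Glutamate 2 lay among the Control libraries for Atf4. Asns, the asparagine synthetase of amino acid metabolism, was at 73.4, 103 and 95.9 CPM in Control and 124, 147 and 121 CPM in Glutamate, without overlap, and its log2 fold change was 0.52 ± 0.36 (SE, n = 3).

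In Memantine against Glutamate the median log2 fold change was −0.10 for cytosolic synthetases, with 4 of 20 positive, and −0.105 for mitochondrial synthetases, with 6 of 16 positive. Over all genes it was −0.02, with 48.4% positive. There were 0 members with an unadjusted p below 0.05, against 5.08% of all genes, and 0 members whose ranges did not overlap, against 2.86%. The 13 ATF4-responsive synthetases had a median of −0.09, with 3 positive. All 15 other ATF4 targets were below 0, with a median of −0.47, although 0 of them had an unadjusted p below 0.05. Atf4 was at 861, 264 and 878 CPM in Memantine (−0.53 ± 0.53, SE, n = 3), and Asns was at 82.8, 93.1 and 109 CPM (−0.46 ± 0.36, SE, n = 3).

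The cytosolic members of smallest p in this comparison were Farsb and Hars1, and the mitochondrial ones Sars2 and Ears2. Hars1, the histidyl-tRNA synthetase of the cytosol, was at 74.3, 62.7 and 56.7 CPM in Glutamate and 99.0, 80.2 and 52.3 CPM in Memantine (0.26 ± 0.33, SE, n = 3). Memantine 3 lay below all 3 Glutamate libraries. In the other groups Hars1 was at 40.8, 89.0 and 61.5 CPM in Control, 65.6, 73.3 and 66.5 CPM in Glutamate_vesicles, 65.1, 68.3 and 46.5 CPM in Glutamate_secret and 68.7, 69.7 and 45.02 CPM in Glutamate_BPC. Sars2, the mitochondrial seryl-tRNA synthetase, had the largest positive value, 0.82 ± 0.53 (SE, n = 3). It was at 5.55, 3.11 and 7.10 CPM in Glutamate and 16.4, 3.72 and 7.76 CPM in Memantine, so that the difference rested on Memantine 1. It was at 4.57, 6.58 and 5.55 CPM in Control, 8.77, 5.14 and 6.22 CPM in Glutamate_vesicles, 9.29, 4.65 and 3.26 CPM in Glutamate_secret and 6.25, 5.19 and 7.92 CPM in Glutamate_BPC.

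The vesicles were compared with Glutamate to ask what the pretreatment added. In Glutamate_vesicles 16 of 20 cytosolic genes and 14 of 16 mitochondrial genes had a positive log2 fold change, with medians of 0.11 and 0.18 against −0.01 over all genes, of which 48.7% were positive. An unadjusted p below 0.05 was found for 0 members, against 1.08% of all genes. The ranges did not overlap for 2 members, against 6.27% of all genes. These were Vars1, higher with vesicles (0.22 ± 0.41, SE, n = 3), and Eprs1, lower (−0.53 ± 0.44, SE, n = 3). The 13 ATF4-responsive synthetases had a median of 0.10, with 9 positive. The 15 other ATF4 targets had a median of −0.09, with 7 positive, and Atf4 had a log2 fold change of −0.45.

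Eprs1 was at 924, 996 and 1169 CPM in Glutamate and 821, 674 and 642 CPM in Glutamate_vesicles. It was also below all Glutamate libraries in Glutamate_secret, at 880.4, 712 and 612 CPM, and in Glutamate_BPC, at 626, 656 and 641 CPM, and these 3 comparisons share the Glutamate libraries. Control held 1095, 514 and 385 CPM and Memantine 1355, 633 and 542 CPM, and in both groups library 1 was above most Glutamate values. In Glutamate_BPC against Glutamate the log2 fold change of Eprs1 was −0.68 ± 0.44 (SE, n = 3; adjusted p = 1 in edgeR).

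Yars2, for tyrosine in mitochondria, had the largest positive fold change with vesicles, 1.15 ± 0.86 (SE, n = 3). It was at 0, 3.09 and 4.04 CPM in Control, 0.517, 2.41 and 1.85 CPM in Glutamate, 1.07, 2.61 and 3.45 CPM in Memantine, 1.89, 3.97 and 4.86 CPM in Glutamate_vesicles, 2.52, 4.38 and 1.09 CPM in Glutamate_secret and 3.17, 3.80 and 3.47 CPM in Glutamate_BPC. All 3 Glutamate_BPC libraries lay above all 3 Glutamate libraries. These levels rested on 776 counts over all libraries. Lars2, for leucine in mitochondria, was at 9.04, 21.6 and 18.1 CPM in Glutamate and 17.6, 22.8 and 24.6 CPM in Glutamate_vesicles (0.41 ± 0.41, SE, n = 3), with library 1 the lowest in both. It was at 7.995, 18.1 and 17.0 CPM in Control, 10.4, 21.0 and 17.96 CPM in Memantine, 13.7, 24.9 and 13.9 CPM in Glutamate_secret and 16.5, 19.4 and 16.8 CPM in Glutamate_BPC.

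In Glutamate_secret against Glutamate the classes stood on opposite sides of 0. The cytosolic median was −0.17, with 5 of 20 positive, and the mitochondrial median was 0.15, with 11 of 16 positive, while the median over all genes was −0.01 and 49% were positive. The 13 ATF4-responsive synthetases had a median of −0.22, with 1 positive. The 15 other ATF4 targets had a median of −0.11, with 5 positive, and Atf4 had a log2 fold change of 0.07. Without Glutamate_secret 3, the library with the lowest cytosolic level, the cytosolic median was 0.04, and without Glutamate_secret 2 it was −0.42. With an unadjusted p below 0.05 there were 0 members, against 0.681% of all genes, and 2 members did not overlap, against 3.41% of all genes. These were Eprs1, lower, and Rars2, higher.

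Rars2, for arginine in mitochondria, was at 8.01, 12.6 and 13.7 CPM in Glutamate and 15.6, 14.7 and 13.8 CPM in Glutamate_secret (0.36 ± 0.43, SE, n = 3). The gap between the groups was narrow, from 13.7 to 13.8 CPM. It was at 5.14, 9.03 and 10.2 CPM in Control, 3.11, 9.33 and 11.2 CPM in Memantine, 10.9, 13.6 and 15.4 CPM in Glutamate_vesicles and 11.7, 17.0 and 9.98 CPM in Glutamate_BPC. All Glutamate_vesicles and all Glutamate_secret libraries were above all Control libraries.

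Aars1, the alanyl-tRNA synthetase, was at 331, 440.1 and 328 CPM in Glutamate and 221, 359 and 138 CPM in Glutamate_secret (−0.61 ± 0.39, SE, n = 3). Yars1, the tyrosyl-tRNA synthetase, was at 125, 184 and 165 CPM in Glutamate and 113, 171 and 52.7 CPM in Glutamate_secret (−0.49 ± 0.39, SE, n = 3). In both genes Glutamate_secret 3 was the lowest of the 6 libraries and Glutamate_secret 2 lay within the Glutamate range. In the other groups Aars1 was at 133, 336 and 278 CPM in Control, 401, 354 and 294 CPM in Memantine, 327, 369.6 and 304 CPM in Glutamate_vesicles and 293, 340 and 270.4 CPM in Glutamate_BPC. Yars1 was at 70.0, 159 and 117 CPM in Control, 122, 143 and 119 CPM in Memantine, 153, 173 and 169.9 CPM in Glutamate_vesicles and 144, 166 and 114 CPM in Glutamate_BPC. For both genes Control 1 was the lowest Control library.

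In Glutamate_BPC against Glutamate the cytosolic median was −0.09, with 7 of 20 positive, and the mitochondrial median 0.15, with 12 of 16 positive, against −0.05 and 45.3% positive over all genes. The ATF4-responsive synthetases had a median of −0.16, with 2 of 13 positive, and the 7 other cytosolic synthetases a median of 0.13, with 5 positive. The 15 other ATF4 targets had a median of −0.14, with 5 positive, and Atf4 had a log2 fold change of −0.05. There were 0 members with an unadjusted p below 0.05, against 1.07% of all genes, and the ranges of Eprs1 and Yars2 did not overlap, 2 members against 7.13% of all genes.

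Cars1, the cysteinyl-tRNA synthetase, was at 475, 136 and 239.9 CPM in Glutamate and 213, 172 and 194 CPM in Glutamate_BPC. The log2 fold change of −0.55 ± 0.71 (SE, n = 3) rested on Glutamate 1, since it was 0.04 without that library. In Control Cars1 was at 724, 128 and 113 CPM, in Memantine at 423, 114 and 161 CPM, in Glutamate_vesicles at 241, 146 and 169 CPM and in Glutamate_secret at 453, 131 and 429.6 CPM. Mars2, for methionine in mitochondria, was at 6.46, 9.52 and 5.16 CPM in Glutamate and 2.99, 6.17 and 4.66 CPM in Glutamate_BPC (−0.61 ± 0.55, SE, n = 3). Elsewhere Mars2 was at 4.57, 6.14 and 7.92 CPM in Control, 2.90, 8.78 and 7.11 CPM in Memantine, 3.09, 11.6 and 7.68 CPM in Glutamate_vesicles and 4.88, 9.51 and 3.44 CPM in Glutamate_secret. For both genes the ranges of these 2 groups overlapped.

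**Figure D3:**
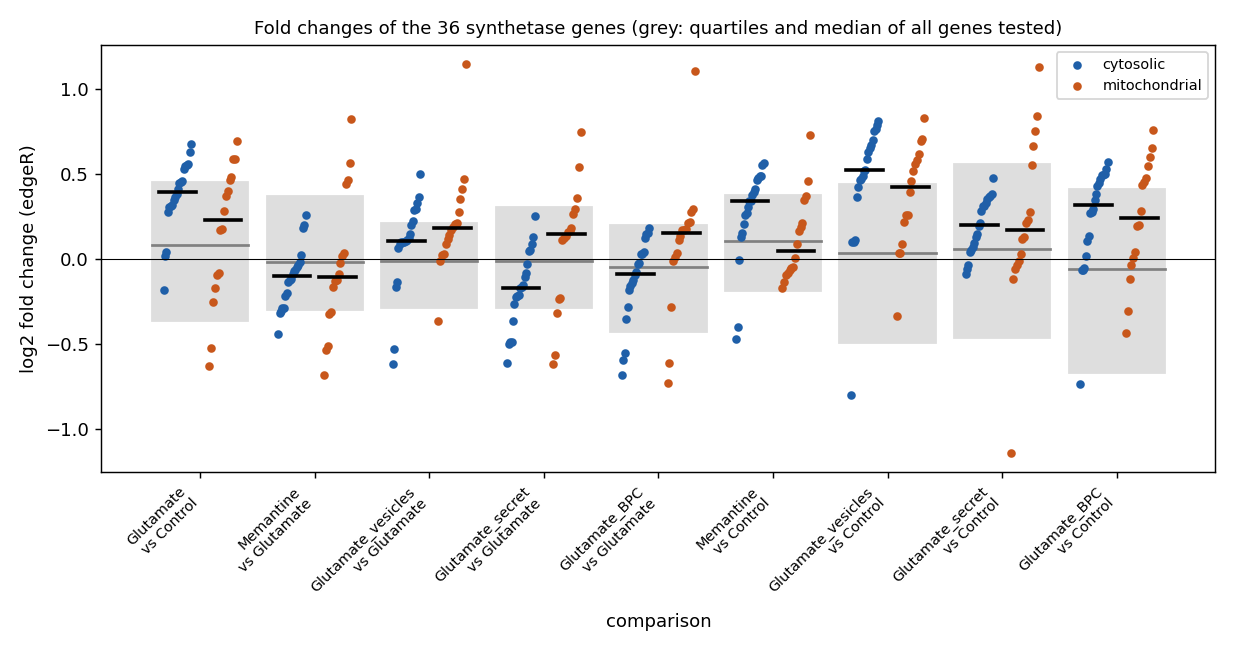
Log2 fold changes of the 20 cytosolic (blue) and 16 mitochondrial (orange) synthetase genes in the 9 comparisons, with black lines at the class medians and grey boxes from the lower to the upper quartile of all genes tested with the median as a grey line. Most cytosolic points are above 0 in the comparisons with Control, with class medians from 0.20 to 0.52, and the class medians in the comparisons with Glutamate lie between −0.17 and 0.18.

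The treated groups were also set against Control, and these comparisons share the Control libraries with each other and with Glutamate against Control. The cytosolic and mitochondrial medians were 0.34 and 0.05 for Memantine, 0.52 and 0.43 for Glutamate_vesicles, 0.20 and 0.17 for Glutamate_secret and 0.32 and 0.24 for Glutamate_BPC. Over all genes the medians were 0.105, 0.035, 0.06 and −0.06. Positive fold changes were found for 17, 19, 17 and 16 of the 20 cytosolic genes, and for 9, 15, 11 and 12 of the 16 mitochondrial genes, while 59.9%, 52.2%, 53.5% and 47% of all genes were positive. Without Control 1 the mitochondrial medians were −0.15, 0.21, −0.01 and 0.06. The cytosolic medians without it are not given here. Control 1 was the lowest Control library for the cytosolic class too, with a mean log2 CPM of 6.39, against 6.86 and 6.71 in Control 2 and 3.

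Glutamate_vesicles against Control had 2 members with an unadjusted p below 0.05, against 11.6% of all genes, or 3.99% of all genes in the higher direction. They were Farsb (0.81 ± 0.37, SE, n = 3; adjusted p = 0.416 in edgeR) and Tars1 (0.79 ± 0.34, SE, n = 3; adjusted p = 0.383 in edgeR), both higher with vesicles. With the replicate number as a block there were 7 such members, all higher and Farsb, Tars1, Wars1, Nars1, Lars2 and Rars1 among them, against 7.67% of all genes in that direction, and none passed the adjusted threshold, against 3.74% of all genes. The ranges of 10 members lay above Control, 9 of them cytosolic, against 9.72% of all genes. Besides Tars1 and Farsb these were Vars1, Mars1, Farsa, Rars1, Wars1, Nars1, Gars1 and Rars2, with log2 fold changes from 0.46 (Mars1) to 0.77 (Vars1). Over the same groups the neuron markers summed to 1910–2590 CPM in Control and 532–814 CPM in Glutamate_vesicles, and the oligodendrocyte lineage markers to 351–559 and 805–1160 CPM.

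In Glutamate_secret against Control 1 member, Ears2, had an unadjusted p below 0.05 (1.13 ± 0.51, SE, n = 3; adjusted p = 0.405 in edgeR), against 11.8% of all genes. The ranges of 3 members, Qars1, Farsa and Rars2, lay above Control, against 6.88% of all genes. In Glutamate_BPC against Control 0 members reached an unadjusted p below 0.05, against 11.3% of all genes. There 8 members lay above Control, against 12.2% of all genes, namely Qars1, Tars2, Mars1, Farsa, Farsb, Rars1, Kars1 and Wars1. In Memantine against Control 0 members had an unadjusted p below 0.05, against 1.12% of all genes, and 2, Tars1 and Wars1, lay above Control, against 1.16%.

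In the cytosol 8 of the enzymes are held in the multi-synthetase complex, together with the scaffold proteins Aimp1, Aimp2 and Eef1e1. All 8 of these synthetases had positive log2 fold changes in Glutamate against Control (median 0.41, from 0.04 to 0.63), in Glutamate_vesicles against Control (median 0.51) and in Glutamate_secret against Control (median 0.25), as did 7 of 8 in Memantine against Control (median 0.34) and 6 of 8 in Glutamate_BPC against Control (median 0.19). In Glutamate against Control 19 of all 20 cytosolic genes and 56% of all genes were positive too, and those of the other comparisons are given above. The scaffold genes had a median of −0.03 in Glutamate against Control, with 1 of 3 positive. Against Control their medians were −0.57 in Memantine (1 of 3 positive) and 0.08 in Glutamate_vesicles (2 of 3). They were 0.24 in Glutamate_secret (3 of 3) and 0.22 in Glutamate_BPC (2 of 3). Aimp1 was at 527, 69.4 and 56.4 CPM in Control and 309, 49.8 and 166 CPM in Glutamate, where library 1 was the highest of each group. Eef1e1 was at 52.8, 41.9 and 42.4 CPM in Control and 50.5, 35.0 and 48.7 CPM in Glutamate, with overlapping ranges.

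Both subunits of the cytosolic phenylalanyl-tRNA synthetase were among the members. Farsb, the β subunit, was at 28.0, 43.7 and 43.9 CPM in Control, 42.5, 63.2 and 38.0 CPM in Glutamate, 24.5, 47.9 and 42.9 CPM in Memantine, 58.3, 70.4 and 74.6 CPM in Glutamate_vesicles, 41.1, 77.2 and 30.8 CPM in Glutamate_secret and 52.7, 65.6 and 44.9 CPM in Glutamate_BPC. Farsa, the α subunit, was at 36.3, 39.5 and 34.5 CPM in Control, 57.9, 29.0 and 53.5 CPM in Glutamate, 37.3, 23.2 and 60.1 CPM in Memantine, 49.0, 47.2 and 56.6 CPM in Glutamate_vesicles, 62.4, 40.5 and 50.7 CPM in Glutamate_secret and 54.1, 49.6 and 52.5 CPM in Glutamate_BPC. Library 2 was the lowest for Farsa and the highest for Farsb in Glutamate, Memantine, Glutamate_secret and Glutamate_BPC. In Glutamate against Control the log2 fold changes of Farsa and Farsb were 0.35 ± 0.34 and 0.31 ± 0.37 (SE, n = 3).

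The dual genes Gars1 and Kars1 were counted with the cytosolic class. Gars1 was at 167, 215 and 179.9 CPM in Control, 291, 199.7 and 203 CPM in Glutamate, 411, 182 and 194 CPM in Memantine, 346, 235 and 314 CPM in Glutamate_vesicles, 233, 251 and 115 CPM in Glutamate_secret and 258, 267 and 189 CPM in Glutamate_BPC. Kars1 was at 111, 148 and 136 CPM in Control, 198, 131 and 184 CPM in Glutamate, 187, 114 and 170 CPM in Memantine, 233, 146 and 173 CPM in Glutamate_vesicles, 195, 142 and 166 CPM in Glutamate_secret and 205, 165 and 199 CPM in Glutamate_BPC. Library 2 was the lowest of its group for Kars1 in every group but Control, and for Gars1 Memantine 1 was the highest and Glutamate_secret 3 the lowest of all libraries. The log2 fold changes in Glutamate against Control were 0.31 ± 0.39 for Gars1 and 0.38 ± 0.31 for Kars1 (SE, n = 3).

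The cytosolic class was compared with the mitochondrial class within each library, as the mean log2 CPM of the 20 cytosolic genes minus that of the 16 mitochondrial genes. As gene lengths were not used, only differences of this value between libraries can be read. It was 4.06 ± 0.37 in Glutamate, 3.98 ± 0.61 in Memantine, 3.94 ± 0.54 in Control, 3.86 ± 0.13 in Glutamate_vesicles, 3.84 ± 0.41 in Glutamate_BPC and 3.80 ± 0.34 in Glutamate_secret (SD, n = 3). The group means thus spanned less than the SD of most groups. In every group library 1 had the highest value and library 3 the lowest, from 4.00 to 4.64 in libraries 1 and from 3.41 to 3.75 in libraries 3. Genes were also paired where the same letter had a symbol ending in 1 and another ending in 2. This gave 13 pairs and left out Fars2, Ears2 and Pars2, whose cytosolic counterparts are Farsa, Farsb and Eprs1. The cytosolic fold change exceeded the mitochondrial one in 9 pairs in Glutamate against Control. In Memantine, Glutamate_vesicles, Glutamate_secret and Glutamate_BPC against Glutamate it did so in 5, 5, 5 and 2 pairs.

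**Figure D4:**
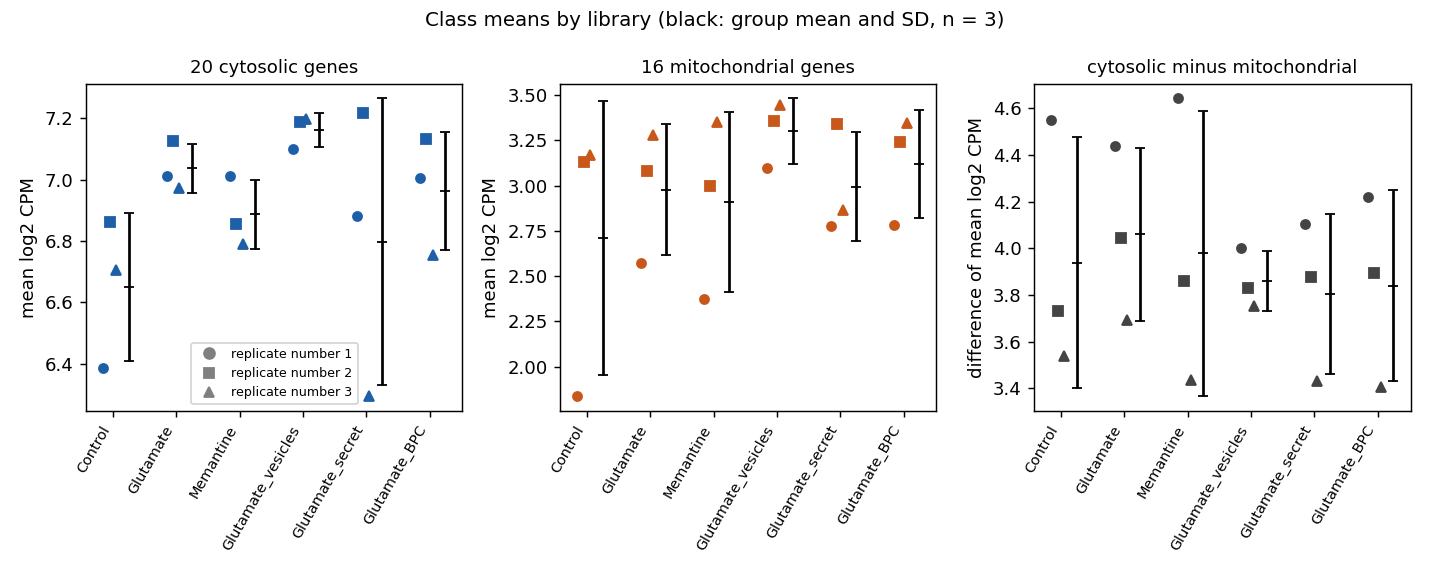
Mean log2 CPM of the 20 cytosolic genes, of the 16 mitochondrial genes and their difference, per library, by group and replicate number (symbols), with black bars for the group mean and SD (n = 3); axes do not start at 0. In the right panel libraries of number 1 lie highest and those of number 3 lowest in every group, and the group means lie between 3.80 and 4.06.

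Libraries of replicate number 1 resembled each other across groups, and so did those of number 2. Libraries of number 3 did so less in most comparisons. Their deviations from group means correlated from −0.45 (Glutamate_secret against Control) to 0.57 (Memantine against Glutamate). With the groups in the fit, number 2 was compared with number 1, 6 libraries against 6. What a number stands for is not given in the labels, and this comparison was added after the data were seen. The study's supplement describes removing variation by day before clustering untreated cultures and cultures given vesicles alone. It also clustered the glutamate groups on batch-corrected counts. Whether a number stands for a day is not stated. Of the 36 members 16 were called at an adjusted p below 0.05, 10 higher and 6 lower in number 2, against 61.2% of all genes, with 32.8% higher and 28.5% lower. The cytosolic class had 4 higher and 2 lower, and the mitochondrial class 6 higher and 4 lower. Both isoleucyl-tRNA synthetases were higher in number 2, as were both leucyl-tRNA synthetases. For number 3 against number 1 in the same fit, 1 of the 36 members was called, against 1.51% of all genes.

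Iars1, the cytosolic isoleucyl enzyme, ranged from 49.2 to 114 CPM (median 99.6) in number 2 and from 11.1 to 30.5 CPM (median 20.1) in number 1, a log2 fold change of 2.13 ± 0.36 (SE, 6 libraries each; adjusted p = 0.000342 in edgeR). Iars2, its mitochondrial counterpart, ranged from 28.1 to 43.5 CPM in number 2 and from 5.43 to 18.6 CPM in number 1 (1.74 ± 0.28, SE). Neither gene overlapped between the numbers. Cars1 had the opposite pattern, from 114 to 172 CPM in number 2 and from 213 to 724 CPM in number 1 (−1.55 ± 0.33, SE; adjusted p = 0.00101 in edgeR). Sars1, the cytosolic seryl enzyme, was lower as well (−0.67 ± 0.21, SE), as were the mitochondrial Fars2 (−1.01 ± 0.23, SE), Pars2, Tars2 and Sars2. Lars1 (1.46 ± 0.33, SE), Farsb (0.61 ± 0.20, SE), Lars2, Mars2, Nars2 and Yars2 were also among the genes that were higher.

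**Figure D5:**
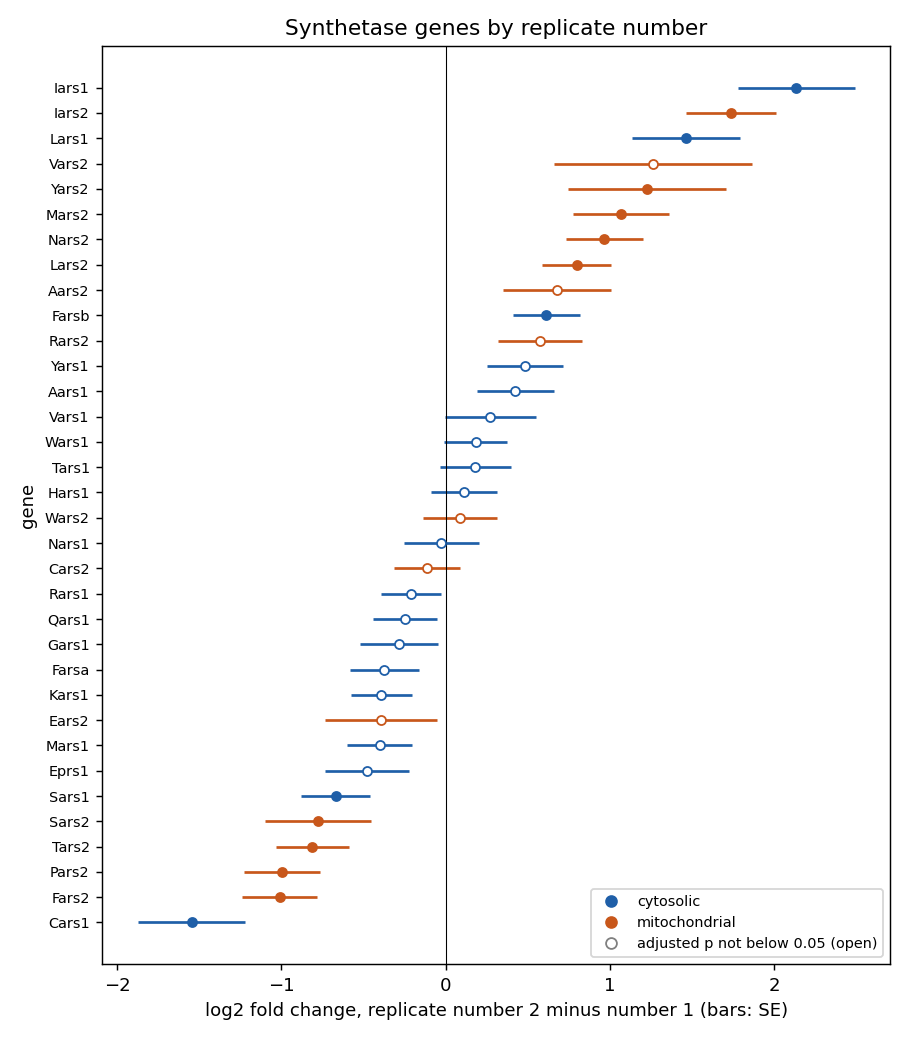
Log2 fold change between replicate number 2 and number 1 for 34 of the synthetase genes (groups in the fit, 6 libraries each, bars for SE), blue for cytosolic and orange for mitochondrial genes, filled where the adjusted p is below 0.05. Iars1, Iars2 and Lars1 lie farthest on the higher side and Cars1 on the lower side.

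The share of ribosomal RNA was 13.4% to 43.0% in libraries of number 1 and 3.04% to 8.15% in those of number 2. In libraries of number 3 it was 6.585% (Control 3) to 26.6% (Glutamate_secret 3). With the groups in the fit, the slope on the log2 share was called for 21 of 36 members, 5 higher and 16 lower with a larger share, against 62% of all genes, with 28% higher and 34% lower. Iars1 had a slope of −1.09 ± 0.12 and Cars1 of 0.77 ± 0.12 (SE) on the log2 scale per doubling of the share. Of the 16 members called between the numbers 14 were called here too, all 14 with the opposite sign. With the share as a covariate, 0 members were called between the numbers, against 16 without it. How many of all genes were called in that fit is not given here. The replicate number and the ribosomal RNA share cannot be fully told apart in these 18 libraries.

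Other genes of tRNA charging and of elongation were described from lists of named genes. Of 12 further aminoacylation genes, 6 had positive fold changes in Glutamate against Control (median −0.02) and 11 in Glutamate_secret against Glutamate (median 0.31), with 0 at an unadjusted p below 0.05 in either. In Glutamate_secret against Control 2 of them were higher and 1 lower at that level. Gatc, a subunit of the mitochondrial glutamyl-tRNA amidotransferase (1.15 ± 0.47), was among the higher, and Tars3, a threonyl-tRNA synthetase-like gene outside the name rule (−0.86 ± 0.36), was the lower (SE, n = 3). Tars3 was also lower in Glutamate_BPC against Control (−0.81 ± 0.36, SE, n = 3). The 4 mitochondrial elongation factor genes were all positive in Glutamate against Control (median 0.39). Among 5 cytosolic elongation factors Eef1a2, the form of neurons and muscle, had a log2 fold change of −2.78 ± 0.68 in Glutamate against Control and 2.54 ± 0.67 in Memantine against Glutamate (SE, n = 3), with adjusted p values of 0.282 and 0.611 in edgeR. It was the only member of that list with an unadjusted p below 0.05, and it had negative values in each preparation group against Control, from −3.47 to −2.38.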

How the data were processed

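Messenger RNA of 18 libraries was measured. The deposited values are expected counts, that is, estimated counts per gene without scaling between libraries. According to the study's methods the authors used Trimmomatic and Cutadapt for trimming, then Salmon against Ensembl rat transcripts of rn6 with the genome as decoy, and tximport for gene sums. The submitters' processing notes also name STAR. The sources differ on library kit and instrument. Strand use in counting was not given in the sources used here, so overlapping genes can share counts. Estimated counts were rounded, and the tests planned for counts were used.

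Genes were filtered with filterByExpr (minimum count 10, minimum total 15) and tested with edgeR 4.0.16 in R 4.3.3, with scaling by the trimmed mean of M values, 1 mean per group over all 18 libraries, the two-sided quasi-likelihood test and Benjamini-Hochberg adjustment over 14398 genes. DESeq2 1.42.0, the likelihood-ratio test, other scaling, no filter, the replicate block, the ribosomal RNA share and leaving out each library were alternatives. The procedure was tested on simulated data that held no effect of replicate number or ribosomal RNA share. How the test behaves with such effects was therefore not shown by it. Depth was 8409574 to 17206354 counts. Log2 CPM used a prior count of 2.

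Members and gene lists were chosen with earlier results of these data known. Values in every library were given for the 2 cytosolic and 2 mitochondrial members of smallest p in Glutamate against Control and in each treated group against Glutamate, the 5 of smallest p in the F test, Gars1, Kars1, Farsa and Farsb. List genes were named at an unadjusted p below 0.05. Other genes were named because their ranges did not overlap or their libraries stood apart, after their values were seen. Some genes, members and list genes that meet these rules included, are not reported here by name.

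Whether replicate numbers pair libraries was checked by the correlation of deviations from group means. Every number exceeded 0.1 for Memantine (0.76, 0.89 and 0.57), Glutamate_secret (0.71, 0.89 and 0.44) and Glutamate_BPC (0.45, 0.75 and 0.48) against Glutamate and for Glutamate_vesicles against Control (0.60, 0.50 and 0.21), but not for the other 5 comparisons.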

Additional observations from a re-analysis of the deposited data

How the results depend on the processing

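The call of 0 members held under all 141 combinations of a count with an alternative. Shares of all genes called are not given here for most of these combinations, so this 0 cannot be read as particular to the members. Of 243 class medians, 242 stayed within 1 SD of the class mean between libraries of a group (0.236 for cytosolic and 0.441 for mitochondrial genes). The exception was the cytosolic median of Glutamate_secret against Glutamate, −0.168, which ranged from −0.416 to 0.038 when 1 library was left out. Of 299 values of named genes under alternatives 1 changed sign, Cars1 in Glutamate_BPC against Glutamate, from −0.554 to 0.0387 without Glutamate 1, within a range from −0.888 to 0.0387 when 1 library was left out. For number 2 against number 1, 16 members and 61.2% of all genes were called. The 16 became 0 with the ribosomal RNA share as a covariate, 22 with DESeq2 and 13 to 16 when 1 library was left out. Shares of all genes under these alternatives are not given here, so the counts cannot be read as particular to the members. With that covariate, an unadjusted p below 0.05 was reached by 6 members, all higher, in Glutamate against Control (6.99% of all genes in that direction), by 7, all higher, in Glutamate_vesicles against Control (7.47%), by 5, all lower, in Memantine against Glutamate (6.85%) and by 7, all lower, in Glutamate_secret against Glutamate (9.15%). The cause was not tested. With the replicate block the unadjusted count for Glutamate_vesicles against Control was 7 in place of 2. For Glutamate_secret against Control it was 2 in place of 1, where the numbers did not pair the libraries. Tars1 in Glutamate against Control and Tars2 in Glutamate_BPC against Control, both higher, also passed the unadjusted threshold with the block. The main fit had 0 such members in either comparison, and the numbers did not pair those libraries either. Shares of all genes with the block are not given here for those comparisons. The block changed no adjusted call of a member. Depth limits mainly the low mitochondrial genes, such as Vars2 with 555 and Ears2 with 750 counts in all libraries together.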
